A study of Mus musculus with 4 samples.

Results

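The 35 genes described here encode proteins that carry cells through mitosis, and they were measured in ureteric buds treated with angiotensin II (AngII). Members were found by matching the accession of each array probe to a RefSeq gene symbol, with Cdk1 counted under its former name Cdc2a as well. Of the 35 genes, 34 had at least 1 named probe, 48 probes in all among 41174, and 31 were tested among 15005 features. No probe mapped by accession to Prc1, a bundler of microtubules in the central spindle. The probes of Aurkb, Ttk and Cenpa were not well above background on any of the 4 arrays in either RNA, so these genes have no ratio here.

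Ureteric buds are epithelial tubes whose repeated branching lays down the collecting system of the kidney. Intact mouse buds grew in a matrix gel, in DMEM/F12 that held 10% FBS (serum), 100 ng/ml GDNF, the growth factor that drives bud branching, and 100 ng/ml HGF. They received AngII at 1e-05 M for 6 h, or media alone for 6 h. The labels give 2 numbered pairs of AngII and media RNA, each read on a pair of two-colour arrays of opposite dye assignment, 4 arrays in all. The labels name neither strain, age nor genotype, nor whether separate animals or cultures gave the pairs.

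In a dividing cell, cyclins A and B activate the kinase Cdk1, which drives entry into mitosis. Chromosomes then attach to spindle microtubules through kinetochores, protein assemblies built on the centromere. The spindle checkpoint holds the cell until every kinetochore is attached, after which the anaphase-promoting complex marks cyclin B and securin for breakdown. Separase then cuts the cohesin that holds sister chromatids together. Transcripts of these genes normally peak late in the cell cycle, and many of their promoters carry CCAAT boxes, bound by NF-Y, and a cell cycle homology region of the form TTTGAA, read by the MuvB complex with B-Myb and FoxM1. In a bulk RNA sample, a smaller number of dividing cells and less of a transcript per cell cannot be told apart.

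Promoter sequences of 29 of the 35 genes were found in RefSeq's table for GRCm38.p6, each with 250 bases before the start of the gene and 50 after it. The letters CCAAT stood on either strand in 22 of these 29 promoters (75.9%), against 10248 of 27025 promoters of all genes (37.9%). TTTGAA stood in 21 of 29 (72.4%), against 18.1% of all promoters, and both together in 18 of 29 (62.1%), against 7.12%. Among the other motifs counted, TTTAAA stood in 9 of 29 member promoters and 13.2% of all, and TTGGCGC, one form of an E2F site, in 10.3% and 2.54%. Matches of these motifs overlapped each other in 2 of the 29 promoters. A match of letters is a description and not a binding site.

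The promoters of Ccnb1, Ccnb2, Cdk1 and Espl1 are shown because the first pair encodes the B cyclins, the third their kinase partner, and the fourth the member with the largest ratio between AngII and media. Capitals mark CCAAT or TTTGAA on either strand, where the other strand reads ATTGG or TTCAAA. The Ccnb1 window (chr13:100786437-100786736, minus strand) held 2 CCAAT matches and no TTTGAA, though it holds TTTAAA, which is not marked. The Ccnb2 window (chr9:70421505-70421804, minus strand) held 3 CCAAT and 2 TTTGAA matches, as did that of Cdk1 (chr10:69352863-69353162, minus strand). The Espl1 window (chr15:102296043-102296342, plus strand) held 1 of each.
Ccnb1: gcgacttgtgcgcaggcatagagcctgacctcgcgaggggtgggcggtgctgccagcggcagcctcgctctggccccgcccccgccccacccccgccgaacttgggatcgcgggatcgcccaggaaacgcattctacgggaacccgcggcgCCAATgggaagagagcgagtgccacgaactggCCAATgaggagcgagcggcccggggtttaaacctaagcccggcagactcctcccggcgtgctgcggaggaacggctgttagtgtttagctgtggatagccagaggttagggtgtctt
Ccnb2: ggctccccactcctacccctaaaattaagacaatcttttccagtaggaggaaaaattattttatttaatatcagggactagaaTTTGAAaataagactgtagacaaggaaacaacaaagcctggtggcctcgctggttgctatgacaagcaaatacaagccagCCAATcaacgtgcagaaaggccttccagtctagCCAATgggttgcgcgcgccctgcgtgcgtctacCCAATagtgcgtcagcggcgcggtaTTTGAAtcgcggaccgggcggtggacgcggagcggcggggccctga
Cdk1: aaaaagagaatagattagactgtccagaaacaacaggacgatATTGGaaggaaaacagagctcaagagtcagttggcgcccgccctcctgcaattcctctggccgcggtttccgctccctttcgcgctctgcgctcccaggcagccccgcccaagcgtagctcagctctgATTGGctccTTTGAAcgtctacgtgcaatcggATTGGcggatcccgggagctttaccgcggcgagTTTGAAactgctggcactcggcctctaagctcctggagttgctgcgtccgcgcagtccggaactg
Espl1: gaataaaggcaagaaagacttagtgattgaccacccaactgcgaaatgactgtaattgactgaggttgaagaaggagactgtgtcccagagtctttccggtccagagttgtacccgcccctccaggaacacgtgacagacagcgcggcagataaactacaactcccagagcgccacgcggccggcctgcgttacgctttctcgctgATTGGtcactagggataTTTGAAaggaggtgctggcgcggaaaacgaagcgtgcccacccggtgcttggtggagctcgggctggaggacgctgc

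The ratios of the 2 numbered replicates differed by no more than the array noise. Across features the SD of the half-difference between replicates was 0.038 on the log2 scale, that of a contrast holding array noise alone 0.037, and that of the AngII over media contrast 0.379. In limma 0 features differed between replicates at an adjusted p under 0.05, and 768 at an unadjusted p under 0.05. The numbered pairs were therefore counted as 1 independent pair of RNA samples, and every adjusted p below covers hybridisation spread alone, not spread between animals or cultures. A dye swap mattered more than a replicate, with ratios that correlated across features at 0.67 and 0.68 between the 2 arrays of a swap and at 0.96 and 0.97 between arrays of the same dye orientation. Of all features, 59% kept 1 sign on all 4 arrays, and 21.7% had one sign on both arrays with AngII in Cy5 and the opposite sign on both arrays with AngII in Cy3.

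Mitotic transcripts went both ways under AngII, mostly by small steps. Of the 31 tested genes 9 rose (29.0%), 16 fell (51.6%) and 6 did not pass. Over all features 77.3% passed, 39.1% as higher and 38.1% as lower, so 25 of 31 passing (80.6%) is a share near that of all features. The median log2 ratio of the 31 genes was -0.14, against 0.00 over all features, and their median absolute log2 ratio was 0.21, against 0.19. Only Espl1 differed at least 1.5-fold, 1 of 31, against 10.9% of all features. With the replicate number as a block on the 4 arrays, a fit whose residual holds the dye effect, 4 genes passed as higher and 5 as lower (30.9% of all features passed), and 9 of the 25 calls were shared. Those 9 were Ccna2, Ccnb2, Nek2, Cenpf, Espl1, Incenp, Kif23, Plk1 and Kif4. With the dye added to that block as a covariate, all 31 genes were on the same side of the threshold as in the averaged fit.

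All 31 tested genes were well above background in both RNAs on all 4 arrays. Their mean log2 intensities ran from 6.67 for Top2a to 14.3 for Cdc20, with a median of 10.0, against 8.41 over all features. All features were also sorted into 10 bins by mean log2 intensity. The bins averaging 9.54 and 10.4 passed in 85.9% and 84.7%, with median absolute log2 ratios of 0.28 and 0.26. Values that follow are log2 ratios of AngII over media unless a fold or an intensity is named. The standard errors of the limma fit lay between 0.034 and 0.041 for the 31 genes. Of the 31 genes 18 (58.1%) kept 1 sign on all 4 arrays, a share near the 59% of all features. These 18 were 5 positive and 13 negative, and all 18 passed. Another 9 genes (29.0%) changed sign with the dye orientation, against 21.7% of all features.

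**Figure D1:**
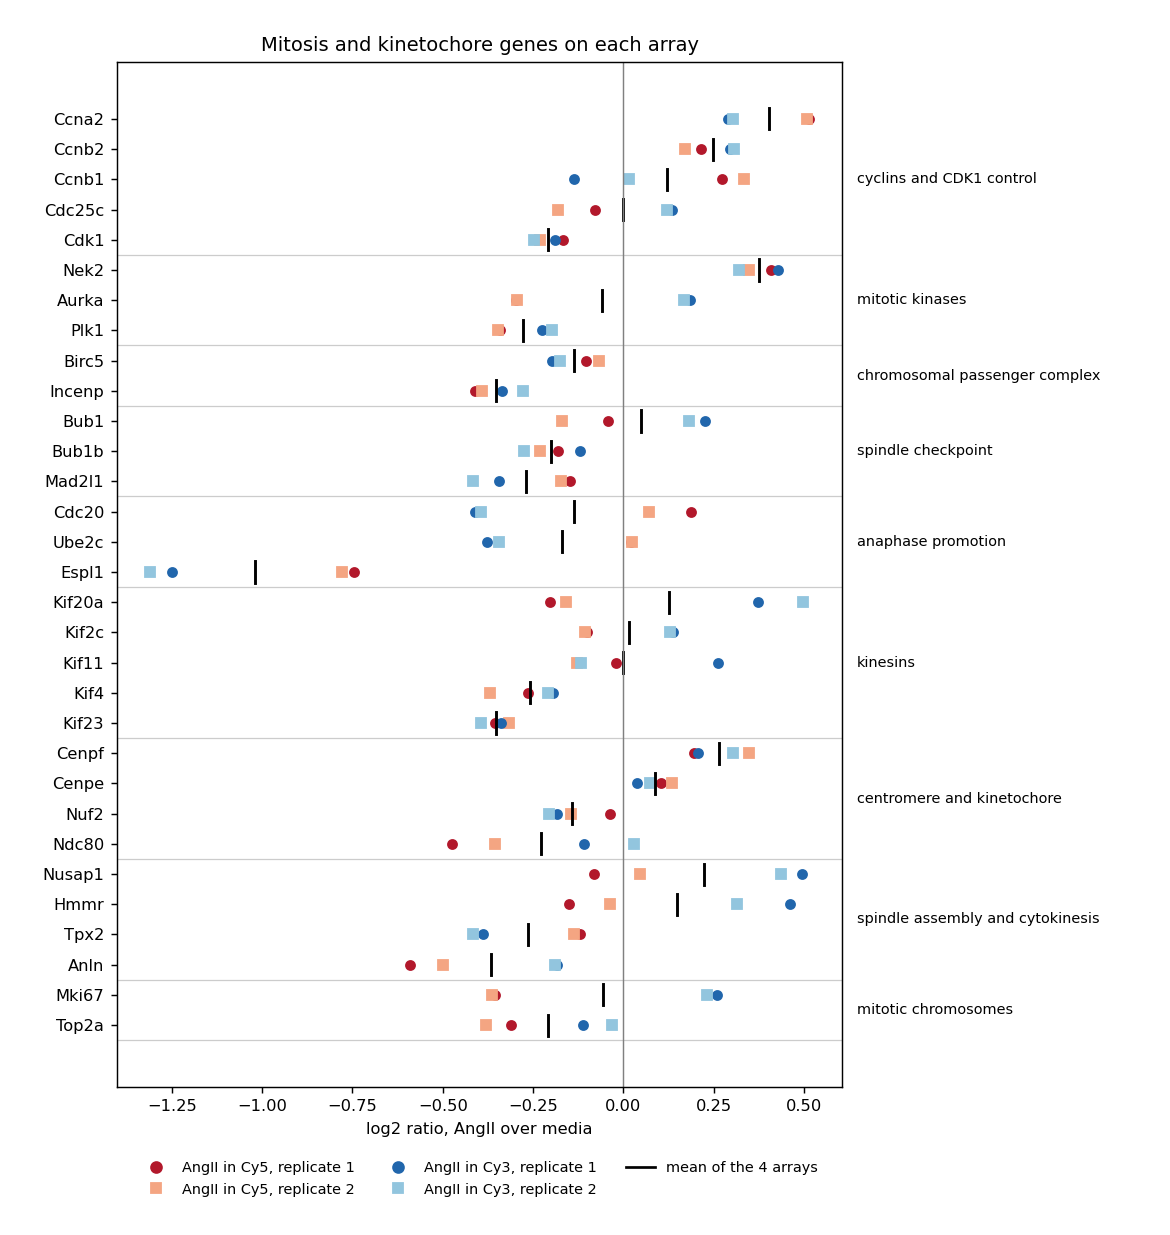
Log2 ratio of AngII over media (x axis) for each tested mitosis gene (y axis, grouped by role) on each of the 4 arrays, with red marks for AngII in Cy5, blue marks for AngII in Cy3, circles for replicate 1, squares for replicate 2 and a black bar for the mean of the 4. Espl1 lies apart at a mean of -1.02, the other genes lie between -0.37 and 0.40, and marks of the same colour lie closer together than marks of different colours for most genes.

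The cyclins were the group that leaned upward. Ccna2, whose product cyclin A2 acts in S phase and at the entry into mitosis, had log2 ratios of 0.51 and 0.51 with AngII in Cy5 (replicates 1 and 2) and 0.29 and 0.30 with AngII in Cy3. All 4 arrays placed it higher under AngII, at a mean of 0.40 (1.32-fold, limma adjusted p = 1.11e-11), with little gap between replicates. Ccnb2 had 0.22, 0.17, 0.29 and 0.31 on the same arrays, a mean of 0.25 (adjusted p in limma = 1.9e-07), again positive on every array. Ccnb1 was less even, at 0.27 and 0.33 with AngII in Cy5 but -0.14 and 0.01 with AngII in Cy3. Its mean of 0.12 passed (limma adjusted p = 0.00302), was 0.07 without replicate 2, and did not pass with the replicate block (0.421) or in the authors' deposited table (adjusted p = 0.0819). The other 2 tested probes of Ccnb1 had 0.24 and 0.19.

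Cdk1, the kinase that these cyclins activate, was lower under AngII. It had -0.17, -0.23, -0.19 and -0.25 on the 4 arrays, a narrow spread with no sign change, and a mean of -0.21 (limma adjusted p = 3.49e-06, or 0.0563 with the replicate block). Cyclin and kinase transcripts therefore lay on opposite sides of 0 on all 4 arrays for Ccna2 and Ccnb2. Cdc25c, a phosphatase that removes the inhibitory phosphates from Cdk1, had a mean of 0.00 made of -0.08 and -0.18 with AngII in Cy5 and 0.13 and 0.12 with AngII in Cy3. The median of the 5 genes was 0.12.

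Among the mitotic kinases the 3 genes gave 3 different outcomes. Nek2, a centrosome kinase that separates the spindle poles, had 0.41, 0.35, 0.43 and 0.32 and rose by a mean of 0.38 (1.30-fold, limma adjusted p = 9.06e-11), with the same size in both dye orientations. Plk1, the polo kinase needed at most steps of mitosis, had -0.34, -0.35, -0.22 and -0.20 and fell by 0.28 on the log2 scale (limma adjusted p = 2.24e-08). Aurka, which builds spindle poles, had -0.30 and -0.30 with AngII in Cy5 and 0.18 and 0.17 with AngII in Cy3. Its mean of -0.06 did not pass (limma adjusted p = 0.107), and the replicates lay close together while the orientations differed in sign.

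The chromosomal passenger complex carries the kinase Aurora B to centromeres and then to the midzone, and its measured parts were lower. Incenp, the scaffold of the complex, had -0.41, -0.39, -0.34 and -0.28, a mean of -0.35 (limma adjusted p = 2.04e-10). Birc5, or survivin, which binds the complex to centromeric histone, had -0.10, -0.07, -0.20 and -0.18, a mean of -0.14 (limma adjusted p = 0.000682). The call on Birc5 was lost with median centring at -0.07, with AngII in Cy5 alone at -0.09, and with the replicate block (adjusted p = 0.169). Cdca8, or borealin, the remaining subunit, stood in a list of further genes and had -0.28. All 3 were negative on all 4 arrays, and Aurkb itself was not tested.

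Genes of the spindle checkpoint were lower or not past the threshold. Mad2l1, which binds and blocks Cdc20, had -0.15, -0.17, -0.34 and -0.42, a mean of -0.27 (limma adjusted p = 4.17e-08, or 0.0591 with the replicate block). Bub1b, or BubR1, a core part of the checkpoint's inhibitory complex, had -0.18, -0.23, -0.12 and -0.28, a mean of -0.20 (limma adjusted p = 9.18e-06, or 0.0646 with the replicate block). Bub1, the kinase that recruits both to kinetochores, had -0.04, -0.17, 0.23 and 0.18, so its mean of 0.05 covered opposite signs, and another tested probe had -0.10 with the orientations the other way round. The median of the 3 genes was -0.20.

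The 3 genes that end the metaphase hold all had lower means, by very different amounts, and only Espl1 was lower on all 4 arrays. Espl1 encodes separase, the protease that cuts cohesin at anaphase. It had -0.74 and -0.78 with AngII in Cy5 and -1.25 and -1.31 with AngII in Cy3. Every array placed it lower under AngII, at a mean of -1.02, a 2.03-fold higher level in media (limma adjusted p = 9.51e-21). Its normalised log2 intensity was at most 8.42 in AngII RNA, against at least 9.02 in media RNA, so the 2 RNAs did not overlap on any array. Its absolute ratio lay at the 98th percentile of all features, and the authors' deposited table gave a log2 ratio of -1.08. A single probe reads Espl1.

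Cdc20, the activator of the anaphase-promoting complex, had 0.19 and 0.07 with AngII in Cy5 and -0.41 and -0.39 with AngII in Cy3. Its mean of -0.14 passed (limma adjusted p = 0.000755) but was lost with median centring at -0.05, with the replicate block (adjusted p = 0.493) and in the authors' deposited table at -0.09 (adjusted p = 0.165). Ube2c, the ubiquitin-conjugating enzyme that works with the complex, had 0.02 and 0.02, then -0.38 and -0.34, a mean of -0.17 (limma adjusted p = 5.65e-05, or 0.285 with the replicate block), and -0.09 with median centring. For Cdc20 and Ube2c the fall came from the arrays with AngII in Cy3, and Espl1 alone of the 3 was negative on all 4 arrays.

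The kinesins, motors that move along spindle microtubules, had no common direction, with 1 higher, 2 lower and 2 not past the threshold, and a median of 0.00. Kif23, a motor of the central spindle needed for cytokinesis, had -0.36, -0.32, -0.34 and -0.40 and fell by 0.35 on the log2 scale (limma adjusted p = 2.07e-10), with -0.22 at its other tested probe. Kif4, which shapes chromosomes and the midzone, had -0.26, -0.37, -0.20 and -0.21 and fell by 0.26 (limma adjusted p = 9.7e-08), with -0.37 at another tested probe. These 2 motors were negative on every array at both of their probes.

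Kif20a, another midzone motor, had -0.20 and -0.16 with AngII in Cy5 and 0.37 and 0.50 with AngII in Cy3. Its mean of 0.13 passed (limma adjusted p = 0.00175), with 0.08 without replicate 2 and 0.19 with median centring, and did not pass with the replicate block (0.572) or in the authors' deposited table (adjusted p = 0.201). Kif2c, which takes microtubules apart at kinetochores, had a mean of 0.01 and Kif11, the motor that pushes spindle poles apart, a mean of 0.00. Kif11 had the widest gap between replicates of the 31 genes, 0.12 in replicate 1 and -0.12 in replicate 2.

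At the kinetochore itself 2 genes rose and 2 fell (median -0.03). Cenpf, a large protein of the outer kinetochore that accumulates in G2, had 0.20, 0.35, 0.21 and 0.30 and rose by 0.26 (limma adjusted p = 1.61e-07). Cenpe, a kinesin that links kinetochores to microtubules, had 0.10, 0.14, 0.04 and 0.07, a mean of 0.09 that was the smallest past the threshold (limma adjusted p = 0.0218). The call on Cenpe was lost with processed signals at 0.10, when dim probes were kept (adjusted p = 0.0685), with AngII in Cy3 alone at 0.06 and with the replicate block (adjusted p = 0.328), and its mean was 0.16 with median centring. Both were positive on all 4 arrays, though a second, dimmer Cenpe probe at 0.06 took both signs.

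Ndc80 and Nuf2, which pair within the complex that grips the microtubule, were both lower. Ndc80 had -0.48, -0.35, -0.11 and 0.03, a mean of -0.23 (limma adjusted p = 1.98e-06), with -0.34 under processed signals. Its call was lost with AngII in Cy3 alone at -0.040 and with the replicate block (adjusted p = 0.168). Nuf2 had -0.04, -0.14, -0.18 and -0.21, a mean of -0.14 (limma adjusted p = 0.000496), which was lost with median centring at -0.07, with AngII in Cy5 alone at -0.09 and with the replicate block (adjusted p = 0.160). Of their partners in the complex, listed among further genes, Spc24 had -0.47 and Spc25 0.29, each with 1 sign on all 4 arrays. The 4 subunits therefore did not share a direction.

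Genes of spindle assembly and cytokinesis split 2 and 2. Anln, or anillin, the scaffold of the contractile ring, had -0.59, -0.50, -0.18 and -0.19, a mean of -0.37 (limma adjusted p = 1.06e-10, or 0.0554 with the replicate block) and -0.61 with processed signals. Tpx2, which activates Aurora A on spindle microtubules, had -0.12, -0.14, -0.39 and -0.42, a mean of -0.27 (limma adjusted p = 5.28e-08, or 0.0797 with the replicate block). Nusap1, a binder of spindle microtubules, had -0.08 and 0.04 with AngII in Cy5 and 0.49 and 0.43 with AngII in Cy3, a mean of 0.22 (limma adjusted p = 1.1e-06, or 0.248 with the replicate block). Hmmr, which acts at spindle poles, had -0.15 and -0.04, then 0.46 and 0.31, a mean of 0.15 (limma adjusted p = 0.000313, or 0.437 with the replicate block), 0.10 with median centring, and no call with processed signals or in the authors' deposited table (adjusted p = 0.0641). Anln and Tpx2 were negative on every array, and the rise of Nusap1 and Hmmr rested on the arrays with AngII in Cy3.

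Mki67 and Top2a, the most used markers of proliferating cells, differed between their own probes. The brighter Mki67 probe had -0.35 and -0.36 with AngII in Cy5 and 0.26 and 0.23 with AngII in Cy3, a mean of -0.06 that did not pass (limma adjusted p = 0.128). Its second tested probe had -0.65, -0.68, -0.30 and -0.17, a mean of -0.45, negative on all 4 arrays. Averaged over both probes Mki67 had -0.25 (limma adjusted p = 2.17e-07). Top2a, which untangles chromosomes, had -0.31, -0.38, -0.11 and -0.03, a mean of -0.21 (limma adjusted p = 2.87e-06, or 0.14 with the replicate block), while its other probe had 0.05. With AngII in Cy3 alone Top2a had -0.072 and no call. The mean of the Top2a probes was -0.08, and the brighter one gave -0.59 with processed signals, at a mean log2 intensity of 6.67 that is the lowest of the 31 genes.

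**Figure D2:**
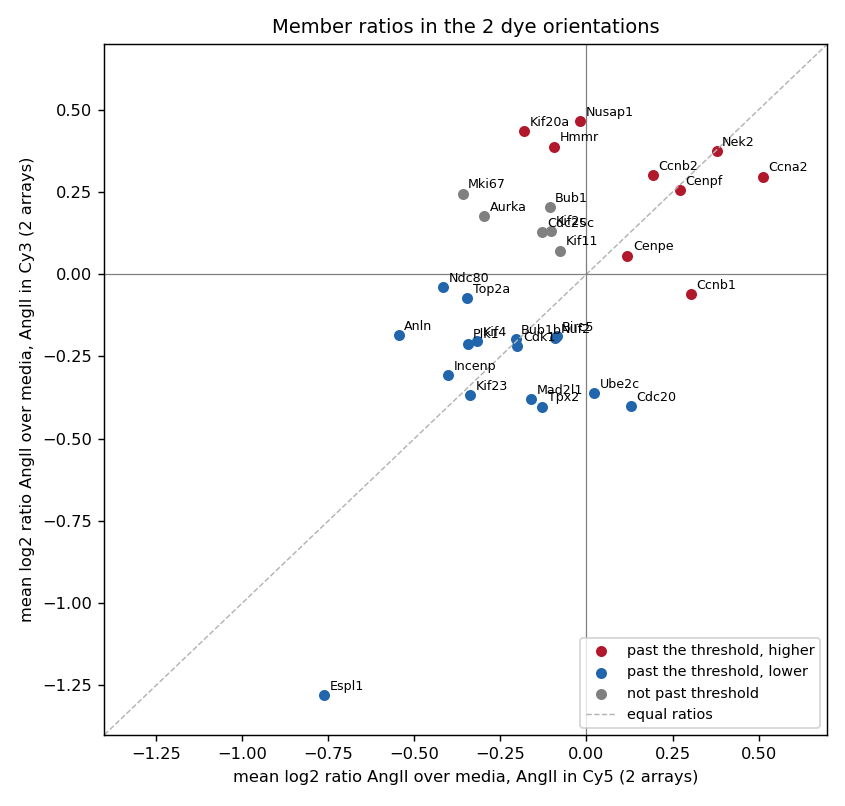
Mean log2 ratio of AngII over media on the 2 arrays with AngII in Cy5 (x axis) and on the 2 arrays with AngII in Cy3 (y axis) for the 31 tested genes, coloured by call. The points in the upper left quadrant (Mki67, Aurka and Kif20a among them) and the lower right one (Cdc20, Ube2c, Ccnb1) have opposite means in the 2 orientations, while Nek2, Cenpf, Cdk1, Bub1b and Kif23 lie close to the dashed line of equal ratios.

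Set side by side, the subgroup medians were 0.12 for cyclins and Cdk1 control (3 of 5 higher, 1 lower), 0.00 for kinesins (1 of 5 higher, 2 lower), -0.03 for centromere and kinetochore (2 of 4 higher, 2 lower) and -0.20 for the checkpoint (0 of 3 higher, 2 lower). Among all features 39.1% passed as higher and 38.1% as lower, and groups this small cannot be told from those shares. On the 4 arrays the median of cyclins and Cdk1 control was 0.22, 0.17, 0.13 and 0.12, and the checkpoint median -0.15, -0.17, -0.12 and -0.28. With AngII in Cy3, the median of cyclins and Cdk1 control was the value of Cdc25c, which is no cyclin and changed sign with the dye orientation. The kinesin median took both signs, at -0.20, -0.16, 0.14 and -0.12. The kinetochore median lay between -0.03 and 0.05 on all 4. Over the 14 alternative settings the median of cyclins and Cdk1 control stayed positive (0.07 to 0.21) and the checkpoint median negative (-0.25 to -0.09). Settings that add a replicate block or a dye covariate keep the mean of the 4 arrays, so they could not move these medians. The medians of kinesins (-0.18 to 0.07) and kinetochore (-0.04 to 0.09) crossed 0. With 3 to 5 genes a group and members chosen with earlier results known, these medians are descriptions with no test.

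Promoter letters were also counted by call. CCAAT stood in 6 of 7 promoters of genes that rose and in 9 of 14 of genes that fell, and TTTGAA in 3 of 7 and 11 of 14. These counts are too small for more than a description, and genes of both calls carried both motifs, as Ccnb2 and Cdk1 above show.

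Further genes of the same machinery were listed by role. Over all features 77.3% passed, 39.1% as higher and 38.1% as lower, and the counts of each list stand beside these shares. Of 27 tested kinetochore and centromere genes outside the 31, 4 were higher and 17 lower (77.8% passed), and the median was -0.13. Nsl1, a subunit of the Mis12 complex that joins the inner and outer kinetochore, had -1.26, -1.08, -1.13 and -1.29, a mean of -1.19 (limma adjusted p = 2.23e-22). Cenpt, which anchors the outer kinetochore to the centromere, had -0.52, and Ska3, part of a complex that tracks microtubule ends, -0.43. Among 11 further checkpoint genes 3 passed as higher and 8 as lower (100.0% passed, median -0.13). Mad1l1, the partner that loads Mad2, had 0.52 (0.16 to 0.90 over the arrays), Mad2l2 0.37, Trip13, which remodels Mad2, -0.36, and Sgo2a, a protector of centromeric cohesin, -0.38 (-0.11 at another probe). Of 19 other spindle and kinesin genes 3 passed as higher and 13 as lower (84.2% passed, median -0.17). The microtubule destabiliser Stmn1 had -0.87 and Plk4, the kinase of centriole copying, -0.40. The cytokinesis exchange factor Ect2 had -0.39 and the kinesin Kif18b -0.36.

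Subunits and partners of the anaphase-promoting complex had 8 of 18 higher and 5 lower (72.2% passed, against 77.3% of all features), with a median of 0.06. Ube2s, which extends ubiquitin chains for the complex, had -1.92 and -1.95 with AngII in Cy5 and -0.96 and -0.92 with AngII in Cy3, a mean of -1.44 (limma adjusted p = 3.1e-24). Anapc2, its cullin subunit, had -0.72 (-1.06 to -0.25 over its 3 tested probes), Cdc23 0.30, and Pttg1, or securin, the inhibitor of separase, -0.30. The activator Fzr1 had -0.25 (-0.46 at another probe) and the inhibitor Fbxo5, or Emi1, 0.18. For condensin and cohesin 2 of 15 genes passed as higher and 7 as lower (60.0% passed, median -0.06). Cdca5, or sororin, which stabilises cohesin, had -0.46, the condensin subunits Ncaph and Ncapg2 -0.45 and 0.28, and the cohesin release factor Wapl -0.33, with 0.19 at another probe.

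Of 14 tested regulators of late cell cycle transcription 4 rose and 9 fell (92.9% passed, against 77.3% of all features, median -0.12). Foxm1, the transcription factor of G2 genes, had -0.59, -0.68, -0.51 and -0.57, a mean of -0.59 (limma adjusted p = 4.02e-15), and Mybl2, or B-Myb, had -0.34, -0.28, -0.63 and -0.64, a mean of -0.47 (limma adjusted p = 4.03e-13). Both were negative on all 4 arrays. Nfya and Nfyc, subunits of the CCAAT-binding factor NF-Y, had -0.59 and -0.72, and Rbbp4, a histone-binding subunit of MuvB, -1.11 (-0.66 at another probe). Rbl2, or p130, the pocket protein of the repressive DREAM complex, had 0.55, 0.41, 0.72 and 0.53 and rose by a mean of 0.55 (limma adjusted p = 9.26e-14). Of 13 brakes on entry into mitosis 4 rose and 5 fell (69.2% passed, median 0.00). Ccng1 had 1.04, the CDK inhibitor Cdkn1a 0.35, Btg2 -0.64 (-0.45 at another probe), Gadd45b -0.64 (-0.12 at another probe) and Plk3 -0.59. Wee1, the kinase that inhibits Cdk1, was not tested. S phase genes fell in 17 of 26 and rose in 3 (76.9% passed), with a median of -0.19. Mcm3 had -0.95, Fen1 -0.80, Mcm5 -0.57 and E2f1 -0.52.

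**Figure D3:**
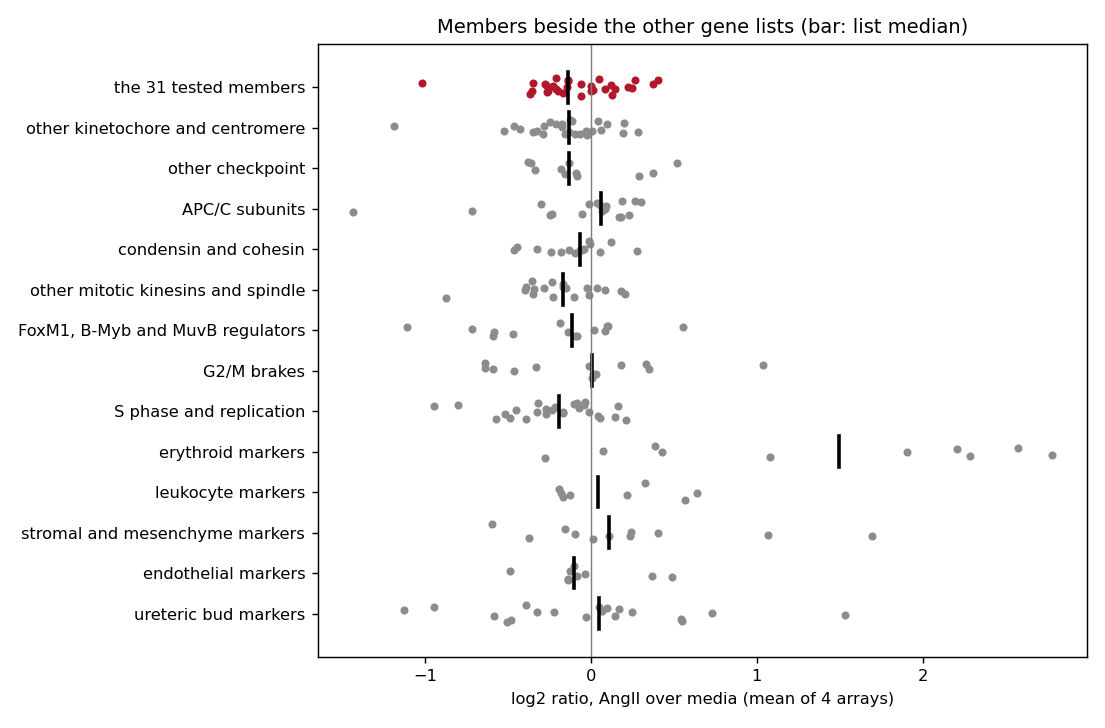
Log2 ratio of AngII over media (x axis, mean of the 4 arrays) for each tested gene, with the 31 mitosis genes in red and the genes of the other lists in grey, 1 list a row, and a black bar at each list's median. The red points have a median of -0.14 and the S phase list one of -0.19, while the erythroid markers stand apart with a median of 1.49.

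Markers of cells that could be present beside the bud epithelium were measured too, where 39.1% of all features passed as higher and 38.1% as lower. Erythroid markers were higher in 8 of 10 tested of 15 listed, and their summed level ran from 33300 to 41100 intensity units in AngII RNA, against 7040 to 8570 in media RNA. Hbb-bt, Hbb-bh1, Hba-a1 and Hbb-y had log2 ratios of 2.78 (2.12 at another probe), 2.58, 2.29 and 2.21. Car2 was lower at -0.28, and Car1 at 0.07 did not pass. The erythroid regulators Gata1 and Klf1 were not tested. Leukocyte markers rose in 4 and fell in 4 of 8, with a median of 0.04. Ptprc had 0.64, Cd74 0.57, Tyrobp 0.33 and Cd52 0.22, while C1qa had -0.19, Fcer1g -0.18, C1qb -0.17 and Csf1r -0.13. The leukocyte list had summed levels of 890 to 957 in AngII RNA and 800 to 849 in media RNA. Endothelial markers summed to 2590 to 2810 in AngII RNA and 2570 to 2850 in media RNA, with 2 of 9 higher and 6 lower, among them Sox18 at 0.49, Flt1 at 0.37, Plvap at -0.49 and Cdh5 at -0.14. Stromal and mesenchyme markers were higher in 6 of 11 and lower in 4, led by Acta2 at 1.69 (0.65 at another probe) and Cspg4 at 1.07 (0.66 at another probe). Meox1 had -0.60 and Col1a1 0.40 (0.07 at another probe). The stromal list summed to 47500 to 52300 in AngII RNA, against 37500 to 43600 in media RNA. Ureteric bud markers, the labelled tissue, were well represented, with 19 of 20 tested, 8 higher and 8 lower, and sums of 258000 to 287000 in AngII RNA and 280000 to 349000 in media RNA. Wnt9b had 1.53, Epcam 0.73, Wnt7b -1.13 and Etv4 -0.95, and Ret was not tested. The part of other cell types in the ratios of the mitosis genes was not tested.

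**Figure D4:**
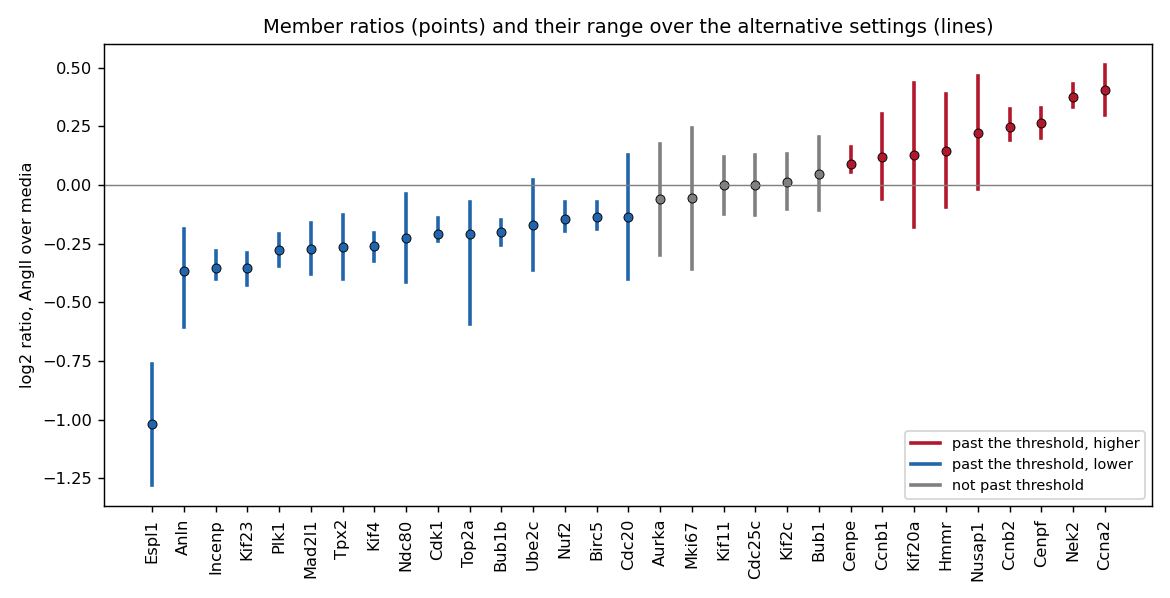
Log2 ratio of AngII over media (y axis) for the 31 tested genes (x axis, in order of the ratio), with points for the averaged fit and lines from the lowest to the highest value over 14 alternative settings, coloured by call. The lines of Espl1, Incenp, Kif23, Plk1, Kif4, Ccnb2, Cenpf, Nek2 and Ccna2 stay well clear of 0, and those of Cdc20, Ube2c, Ccnb1, Kif20a, Hmmr and Nusap1 cross it.

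The authors' deposited table had called 21 of the 25 genes in the same direction on the same probes, and the 4 it did not call were Ccnb1, Cdc20, Kif20a and Hmmr. Across all features its log2 ratios correlated with those computed here at r = 0.995, a description across features that are not independent. Its call on the second Mki67 probe was lower, with a log2 ratio of -0.47 and an adjusted p of 8.7e-05 in the authors' deposited table.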

How the data were processed

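RNA of AngII-treated and media-treated mouse ureteric buds was compared on 4 two-colour Agilent arrays, from 300 ng of total RNA per the labels' protocols. The file headers name Feature Extraction 10.5.1.1, and the submitters' processing notes name limma with no version. The deposited intensity values used are median pixel signals without background correction. Agilent's processed intensities, an alternative, have background and dye corrections per the file headers. The deposited files also hold Agilent's log10 ratio of red over green. The authors' deposited table lists, for every spot, log2 values (the AngII over media ratio and the average intensity), adjusted p-values, and a call given as a score of -1, 0 or 1. How it was normalised is not given in the sources used here.

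Median signals were used where the design had named mean signals. In R 4.3.3 with limma 3.58.1, normexp (offset 50) corrected the background and loess normalised each array. The offset pulls ratios of dim spots towards 0. Control spots had weight 0, outlier-flagged spots were left out and saturated spots kept. After arrays with AngII in Cy3 were turned, each number's arrays were averaged, and lmFit and eBayes compared the 2 resulting ratios with 0. The threshold was a Benjamini-Hochberg adjusted p under 0.05 over 15005 features. A probe was tested if well above background on all 4 arrays in AngII or in media RNA, and the brightest probe of a gene was used. Accessions named 25097 of 41174 probes through RefSeq genes of GRCm38.p6. Since the array's annotation uses mm9, positions are given only for promoters. Each array pairs the RNAs of 1 number, which is the pairing. Members and lists were chosen with earlier results of these data known. Genes named from other lists are up to 4 a list with the smallest p, past the threshold with 1 sign on all arrays, and 6 listed by name. Cdca8, Spc25, Rbl2, C1qa, C1qb, Csf1r, Fcer1g, Car1 and Car2 were named after their values were seen. Precision is limited by how few arrays there are. The fit was tested on simulated data in which all features of an array shared the same dye shift. The simulation held no dye effect that differed between genes, so it cannot show how the fit handles such an effect.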

Additional observations from a re-analysis of the deposited data

Results flagged for a closer look

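For 9 of the 31 tested genes, both arrays with AngII in Cy5 gave one sign and both arrays with AngII in Cy3 the other, a pattern seen in 21.7% of all features. The difference between orientations was not tested. The mean log2 ratio with AngII in Cy5 minus that with AngII in Cy3 was -0.62 for Kif20a, -0.60 for Mki67, -0.48 for Hmmr, -0.47 for Aurka, -0.31 for Bub1, -0.26 for Cdc25c and -0.24 for Kif2c. It was positive for Cdc20 at 0.53 and for Ube2c at 0.38. Of these 9 genes 4 passed the threshold in the averaged fit, Kif20a and Hmmr as higher and Cdc20 and Ube2c as lower.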

How the results depend on the processing

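Of 25 calls, 9 held under every alternative that gave a test (Ccna2, Ccnb2, Nek2, Cenpf, Espl1, Incenp, Kif23, Plk1 and Kif4). A single direction in all 14 alternatives was kept by 19 of the 31 genes, though some alternatives keep the mean of the 4 arrays by design. The matching share of all features was not counted. With the replicate block 4641 features passed in place of 11593, and 4 mitosis genes were higher and 5 lower in place of 9 and 16. With the dye beside the replicate block, chosen after seeing the data, all 31 genes kept their side of the threshold. The fits with the replicate block, with or without the dye, and with the dye as covariate keep the mean of the 4 arrays. They could therefore change no direction. The median over members was -0.14, and it was -0.11 with processed signals, -0.052 with median centring, -0.059 with no filter on dim probes (34 genes), -0.061 with AngII in Cy3 alone, -0.09 in the authors' deposited table, and -0.12 to -0.11 with a replicate left out. With AngII in Cy3 alone the sign turned for Ccnb1 (-0.061), Cdc25c (0.13), Aurka (0.18), Mki67 (0.24) and Kif11 (0.072). With AngII in Cy5 alone it turned for Cdc20 (0.13), Ube2c (0.022), Kif20a (-0.18), Nusap1 (-0.019), Hmmr (-0.094), Bub1 (-0.11) and Kif2c (-0.10). Under the other alternatives the sign turned for uncalled genes only: Aurka with median centring (0.0064), Kif2c with processed signals (-0.035), Bub1 (-0.023) and Cdc25c (0.032) with probes averaged per gene, and Cdc25c (0.027) and Kif11 (0.12) without replicate 2. In the 100 bases before the start, CCAAT stood in 69.0% of member promoters, against 19.6% of all promoters. TTTGAA stood there in 24.1%, against 5.91% of all promoters. No other pair of RNA samples checks the difference between AngII and media, and Top2a, the dimmest gene, had -0.59 with processed signals.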
